A study of Mus musculus with 6 samples.

Results

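Trpm3 and 9 genes that mark the epithelium of the choroid plexus were followed in cultured mouse ependymal cells with and without Edf1. The 10 genes (Trpm3, Ttr, Otx2, Kcnj13, Folr1, Clic6, Aqp1, Enpp2, Kl and Slc4a5) were taken by symbol from a table of read counts for 22851 genes, and all 10 had a row. Trpm3 was selected on its higher counts in the knockout in these same libraries, and the markers were added to ask whether that cell type came with it, so the differences of these 10 genes between genotypes are given as descriptions, with no p-value. Where genes of the set are counted as past the threshold of a fit, that count is a description too. The cells were radial glia from brains of C57BL/6J mice at postnatal days 0 to 3, either wild type (WT) or Edf1 knockout (KO) mice made with CRISPR/Cas9, grown in 10% serum and then kept without serum for 6 days to become multiciliated ependymal cells. There were 3 libraries of each genotype, described as biological replicates, and the labels do not say which part of the brain was taken, whether animals were pooled or which allele the knockout carries.

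The choroid plexus is a fringe of epithelium in each brain ventricle that secretes cerebrospinal fluid. Its cells arise from the dorsal midline of the neural tube, next to the progenitors of ependymal cells, and like ependymal cells they carry several cilia. TRPM3 is a calcium-permeable cation channel opened by heat and by the steroid pregnenolone sulfate. In the brain its transcript is best known from this epithelium, and it also occurs in the retinal pigment epithelium and in sensory neurons.

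Trpm3 spans chr19:22139046-22995410 on the plus strand (GRCm38, GENCODE M21), and RefSeq gives it 2 start sites that lie 309.2 kb apart. The 250 bases before each start are shown because read counts per gene cannot tell which of them gave the additional Trpm3 reads. The Otx2 start shown with them is the only one of 10 promoters of these genes that held the core motif of OTX factors, TAATCC or its reverse complement GGATTA. Capitals mark CCAAT or TAATCC on either strand, read 5′ to 3′ on the strand of the gene from RefSeq (GRCm38.p6).
Trpm3 upstream start, chr19:22138796-22139045, plus strand: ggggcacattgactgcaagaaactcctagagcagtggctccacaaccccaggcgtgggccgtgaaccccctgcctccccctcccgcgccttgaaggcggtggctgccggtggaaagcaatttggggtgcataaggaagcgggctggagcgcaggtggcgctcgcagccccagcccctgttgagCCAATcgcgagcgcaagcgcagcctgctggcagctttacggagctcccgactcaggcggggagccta
Trpm3 downstream start, chr19:22447958-22448207, plus strand: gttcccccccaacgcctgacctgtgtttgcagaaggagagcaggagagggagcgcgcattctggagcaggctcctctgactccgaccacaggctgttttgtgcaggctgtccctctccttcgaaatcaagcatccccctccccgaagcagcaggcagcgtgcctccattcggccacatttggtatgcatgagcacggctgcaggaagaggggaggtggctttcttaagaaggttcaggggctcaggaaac
Otx2, chr14:48665110-48665359, minus strand: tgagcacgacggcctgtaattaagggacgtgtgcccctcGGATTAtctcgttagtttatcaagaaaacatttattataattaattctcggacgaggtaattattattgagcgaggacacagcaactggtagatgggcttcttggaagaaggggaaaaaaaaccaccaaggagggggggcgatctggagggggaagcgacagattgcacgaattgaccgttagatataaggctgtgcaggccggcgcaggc
RefSeq promoters were matched for 6 of the 10 genes (Trpm3, Otx2, Kcnj13, Aqp1, Kl and Slc4a5). The upstream Trpm3 promoter had a GC content of 66.4% and a CCAAT box that starts 67 bases before the start site. The downstream one had 59.2% GC and neither motif, against a median of 52.4% GC over 32851 RefSeq promoters. TAATCC in either orientation was present in 6.25% of those promoters, CCAAT or ATTGG in 33.8% and TATAAA or TTTATA in 12.4%. Of the 10 promoters of these genes 1, 3 and 3 held them.

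Trpm3 also hosts a microRNA. The gene of miR-204 lies inside Trpm3, 611.6 kb from its start and outside its annotated exons. The gene of miR-211 lies inside Trpm1, the closest relative of Trpm3. The mature 5p strands are shown because the host genes both appear in the results and the microRNAs have the same seed, bases 2 to 8, in capitals.
miR-204-5p, chr19:22750610-22750631, plus strand: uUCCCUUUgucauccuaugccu
miR-211-5p, chr7:64205831-64205852, plus strand: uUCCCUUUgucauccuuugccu
The microRNAs themselves were not analysed here.

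Library totals were 13071766 to 28087006 counts, and WT replicate 2 was the smallest. Levels are given as CPM, each count divided by a library size scaled for composition. Edf1, the targeted gene, had 82.8 ± 2.85 CPM in WT, against 11.3 ± 1.72 CPM in KO libraries (mean ± SD, n = 3 each), which fits the labels of all 6 libraries. The ependymal regulator Foxj1 had a mean of 788 CPM in WT and a lower mean of 523 CPM in KO libraries, so its transcript was present in both. In a fit over 14243 tested genes by edgeR's quasi-likelihood test, 12.7% of genes were called higher and 14.2% lower in the knockout at an adjusted p-value under 0.05.

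Trpm3 was several times higher in the knockout, while most markers of choroid plexus epithelium were not. Trpm3 had 172, 79 and 98 counts in WT replicates 1, 2 and 3 and 587, 655 and 880 counts in knockout replicates 1, 2 and 3. As CPM these came to 6.48, 6.14 and 5.30 for WT, and to 36.1, 36.5 and 31.1 for KO libraries. Every knockout library lay far above every WT library. The means were 5.97 ± 0.61 CPM and 34.6 ± 2.97 CPM (SD, n = 3 each), a ratio of 5.79 and a log2 fold change of 2.52 (SE 0.11). By log2 fold change Trpm3 ranked 14 of 14243 tested genes.

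**Figure D1:**
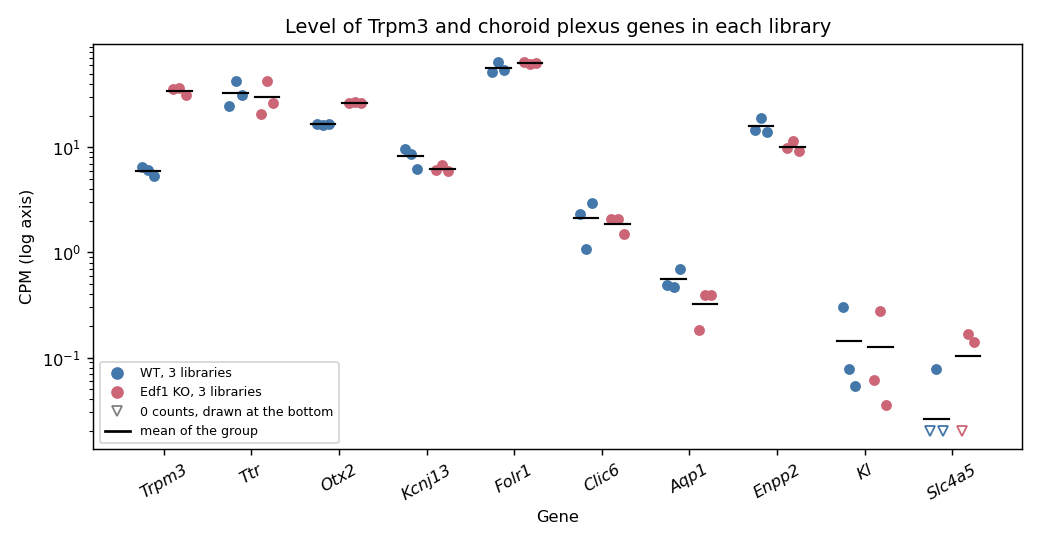
CPM of Trpm3 and the 9 choroid plexus genes (log axis) in each WT and Edf1 KO library, with a line at the mean of each group of 3. Trpm3 and Otx2 stand higher in all knockout libraries, Enpp2 and Aqp1 stand lower, and the other genes overlap between genotypes.

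Otx2 (chr14:48657677-48673819, minus strand) encodes the homeodomain transcription factor that specifies and maintains choroid plexus epithelium, and it also acts in the midbrain, the pituitary and the eye. It had 16.6, 16.2 and 16.7 CPM in WT, against 26.4, 26.8 and 26.3 CPM in KO libraries. The libraries of a genotype were almost level, and the groups did not overlap. The knockout mean of 26.5 ± 0.28 CPM was 1.60 times the WT mean of 16.5 ± 0.25 CPM (SD, n = 3 each), a log2 fold change of 0.68 (SE 0.074). Trpm3 and Otx2 were the 2 genes of the set with higher values in all 3 knockout libraries.

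Ttr (chr18:20665280-20674321, plus strand) encodes transthyretin, the carrier of thyroxine and retinol that choroid plexus epithelium secretes in very large amounts. Its level was 24.8, 42.3 and 31.6 CPM in WT, against 20.5, 42.7 and 26.6 CPM in KO libraries. Replicate 2 was the highest library in both genotypes, and the ranges overlapped. The log2 fold change was -0.11 (SE 0.23), with means of 32.9 ± 8.85 and 29.9 ± 11.4 CPM (SD, n = 3 each). Its sign was not stable, at 0.095 without WT replicate 2 and 0.082 without knockout replicate 1. Without knockout replicate 2 it was -0.44.

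Folr1 (chr7:101858331-101870788, minus strand) encodes the folate receptor that carries folate across this epithelium, and it was the most abundant of the 10 genes. It had 52.1, 64.1 and 54.1 CPM in WT, against 64.0, 62.5 and 63.4 CPM in KO libraries. WT replicate 2 lay at the level of the knockout libraries and the other WT libraries lay below them. The log2 fold change was 0.17 (SE 0.074), and it was 0.25 without WT replicate 2.

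Kcnj13 (chr1:87386363-87394729, minus strand) encodes the potassium channel Kir7.1 of the apical membrane. It had 9.71, 8.70 and 6.16 CPM in WT, against 6.02, 6.79 and 5.98 CPM in KO libraries, so WT replicate 3 lay among the knockout libraries. The log2 fold change was -0.40 (SE 0.17), and it was -0.57 without WT replicate 3. Of its exonic bases, 49.1% overlap exons of Gigyf2 on the opposite strand. It is not given in the sources used here whether the counting used strand, so reads of Kcnj13 and Gigyf2 cannot be told apart with certainty.

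Clic6 (chr16:92485736-92541243, plus strand) encodes a chloride intracellular channel protein. It was low, at 2.33, 1.09 and 2.97 CPM in WT, against 2.09, 2.06 and 1.49 CPM in KO libraries. The lowest and the highest values were both WT libraries. The log2 fold change was -0.27 (SE 0.31), and it was 0.0039 without WT replicate 3 and -0.51 without WT replicate 2.

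Enpp2 (chr15:54838901-54952892, minus strand) encodes autotaxin, a secreted enzyme that makes lysophosphatidic acid, and is also made by oligodendrocytes and meningeal cells. It had 14.6, 18.8 and 13.99 CPM in WT, against 9.77, 11.4 and 9.16 CPM in KO libraries. All knockout libraries lay below all WT libraries, the opposite of Trpm3. The means were 15.8 ± 2.61 and 10.1 ± 1.16 CPM (SD, n = 3 each), a log2 fold change of -0.63 (SE 0.13).

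The remaining markers were at or near the limit of detection in both genotypes. The water channel gene Aqp1, abundant in the apical membrane of this epithelium, had 13, 6 and 13 counts in WT, against 3, 7 and 11 in KO libraries. Kl, which encodes the anti-ageing hormone and FGF23 co-receptor Klotho, had 8, 1 and 1 counts in WT, against 1, 5 and 1 in KO libraries. Slc4a5, a sodium bicarbonate cotransporter gene, had 0, 1 and 0 counts in WT, against 0, 3 and 4 in KO libraries. A count of 3, the limit that a count of 0 allows, corresponds to 0.106 to 0.233 CPM in these libraries and covers counting error only. Kl was above 3 counts in 2 of 6 libraries and Slc4a5 in 1 of 6, so a difference between genotypes was not detectable at this depth.

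These 3 genes were too low for the fit, which left 7 of the 10. By the threshold of the fit, 2 of the 7 counted as higher (Trpm3 and Otx2) and 1 as lower (Enpp2), where the share over all tested genes was 12.7% higher and 14.2% lower. Groups did not overlap, with the knockout above, for Trpm3 and Otx2, as for 21.2% of tested genes, and with the knockout below for Enpp2, as for 22.1%. Aqp1, which was not tested, also lay below in all knockout libraries. The genes were chosen with this contrast known, so nothing is read from these shares. Without WT replicate 2 Folr1 also counted as higher, and without WT replicate 3 Kcnj13 also counted as lower. The median log2 fold change of the 7 was -0.11, beside 0.0029 for all tested genes, and it was above 0 without WT replicate 2 (0.095), WT replicate 3 (0.0039) or knockout replicate 1 (0.082). The summed level of the 9 markers without Trpm3 was 121, 152 and 126 CPM in WT, against 129, 153 and 134 CPM in KO libraries, with overlapping ranges. Most of this was Folr1 and Ttr, and the sum does not show the opposite differences of Otx2 and Enpp2. Since these are bulk libraries, fewer cells of a type and less RNA per cell cannot be told apart.

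A ratio of counts within a library needs no scaling between libraries. For every Ttr count there were 0.261, 0.145 and 0.168 Trpm3 counts in WT, against 1.76, 0.855 and 1.17 in KO libraries. Per Otx2 count the Trpm3 ratio was 0.317 to 0.390 in WT and 1.19 to 1.37 in the knockout, so Trpm3 also stood higher relative to the marker nearest to it in direction. Per Folr1 count it was 0.0956 to 0.124 and 0.491 to 0.583. The ranges of WT and knockout did not overlap for any of the 6 markers with enough counts for the fit. Trpm3 was selected on its rise and none of these markers rose as much, so this separation was largely set by that choice.

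**Figure D2:**
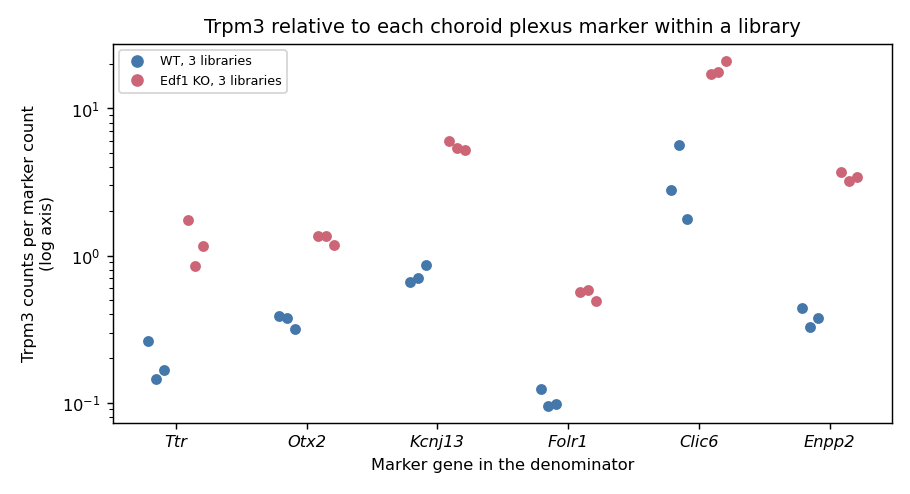
Trpm3 counts divided by the counts of each of 6 choroid plexus markers (log axis) in the 3 WT and 3 Edf1 KO libraries. For each marker all knockout libraries lie above all WT libraries, for example 0.855 to 1.76 against 0.145 to 0.261 for Ttr. This separation was largely set by the selection of Trpm3 on its rise in these libraries.

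Levels of different genes were compared as CPM per kilobase of the longest annotated transcript. In WT the order was Folr1 (43.3 ± 4.91), Ttr (27.7 ± 7.46), Kcnj13 (6.45 ± 1.44), Otx2 (6.37 ± 0.095), Enpp2 (5.10 ± 0.84), Clic6 (0.567 ± 0.26), Trpm3 (0.485 ± 0.049) and Aqp1 (0.210 ± 0.050 CPM per kb, SD, n = 3 each), with Kl and Slc4a5 below. Folr1 and Ttr did not overlap between libraries, and neither did Ttr and Kcnj13, Otx2 and Enpp2, or Enpp2 and Clic6. Kcnj13 overlapped both Otx2 and Enpp2, and Clic6 overlapped Trpm3. In the knockout Trpm3 reached 2.81 ± 0.24 CPM per kb, above Clic6 (0.4999 ± 0.091) and at the lower edge of Enpp2 (3.27 ± 0.38). Per length it still stood well below Folr1 (48.2 ± 0.57) and Ttr (25.2 ± 9.64). Trpm3 has 24 annotated transcripts with a longest of 12305 and a median of 4842 bases, and with the median its levels became 1.23 in WT and 7.14 in the knockout, which placed it above Enpp2 in the knockout.

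The wider list of choroid plexus epithelial genes, none of them among the 10, held genes called in both directions. Of its 34 genes with a row, 26 were tested: 7 were called higher (26.9%, against 12.7% of all genes) and 5 lower (19.2%, against 14.2%). The median log2 fold change of the 26 was 0.12. The list summed to 1059 to 1143 CPM in WT, against 1171 to 1235 CPM in KO libraries, so the ranges did not overlap. Ecrg4, which was not called, was the largest part of that sum. The largest rises were those of Rdh5, a retinol dehydrogenase gene, from 13.3 ± 0.28 to 25.5 ± 1.25 CPM (log2 fold change 0.93 with SE 0.081 and edgeR adjusted p-value 4.57e-06), and of the collagen gene Col8a1, from 50.4 ± 5.94 to 94.2 ± 0.32 CPM (0.90, SE 0.075, 3.41e-06). The largest falls were those of the epithelial keratin gene Krt8, from 6.30 ± 0.91 to 1.90 ± 0.20 CPM (-1.74, SE 0.19, edgeR adjusted p-value 2.57e-05), and of the sulfate transporter gene Slc13a4, from 3.26 ± 0.89 to 1.64 ± 0.34 CPM (-1.06, SE 0.25, 0.00836). With knockout replicate 3 left out Slc13a4 was no longer called (-0.92, edgeR adjusted p-value 0.0556, in a range of 0.00063 to 0.0556 over 12 alternatives).

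Several genes of this list that are known from the epithelium had few counts. Kcne2, a potassium channel subunit gene of the apical membrane, had 10, 4 and 6 counts in WT, against 1, 3 and 2 in KO libraries. Tmem72 had 2, 1 and 5 counts in WT, against 1, 3 and 9 in KO libraries. The serotonin receptor gene Htr2c had no count in WT and 0, 0 and 3 in KO libraries. The prolactin receptor gene Prlr had at most 1 count in any library. None of these 4 genes passed the filter on low counts.

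Several genes for ion and solute transport were not called. Slc12a2, the sodium, potassium and chloride cotransporter gene that drives secretion of the fluid, had 92.1 ± 11.9 CPM in WT, against 97.98 ± 3.61 CPM in KO libraries (log2 fold change 0.085, SE 0.080). The anion exchanger gene Slc4a2 had a log2 fold change of 0.11 (SE 0.049) and the organic anion transporter gene Slco1a5 one of 0.0044 (SE 0.056). Slco1c1, a thyroid hormone transporter gene also made by astrocytes and endothelium, rose from 54.96 ± 1.49 to 77.8 ± 0.74 CPM (0.50, SE 0.054). Ecrg4, a secreted peptide gene and the most abundant of the list, had 414 ± 47.4 CPM in WT, against 451 ± 20.6 CPM in KO libraries (0.12, SE 0.071), and was not called. Without WT replicate 2 it was called higher (0.22, edgeR adjusted p-value 0.000313, with 0.000313 to 0.517 over 13 alternatives). The other genes called higher were Ace, F5, Lbp and Cldn2, and the other genes called lower were Steap1, Calml4 and Spint2, all named here after their values were seen.

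**Figure D3:**
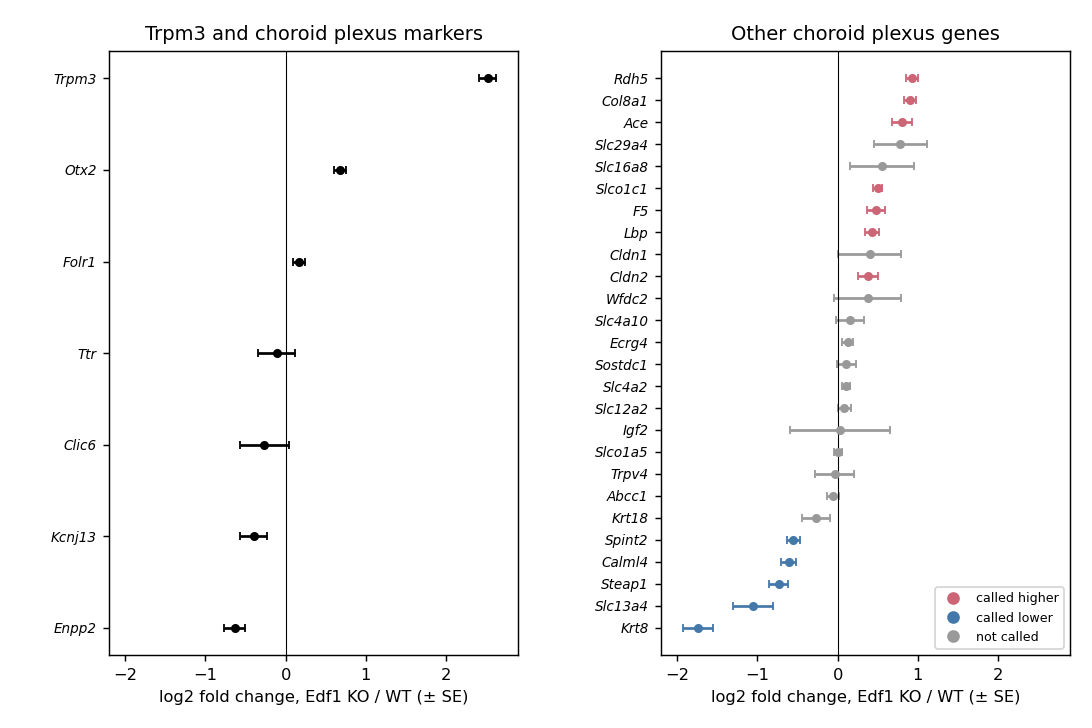
Log2 fold change with its standard error (horizontal axis, Edf1 KO over WT) for Trpm3 and the 6 tested markers on the left and for 26 other choroid plexus genes on the right, the latter coloured by call. Trpm3 at 2.52 lies apart from the other genes, which run from -1.74 for Krt8 to 0.93 for Rdh5.

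Roof plate and cortical hem genes, which pattern the dorsal midline where the choroid plexus forms, included genes called higher. Of 16 genes 11 were tested. Of these 4 were called higher (36.4%, against 12.7% of all tested genes) and 1 lower (9.09%, against 14.2%). The median log2 fold change was 0.49. The list summed to 305 to 327 CPM in WT, against 330 to 338 CPM in KO libraries, and most of this was Bmp6. Rspo3, which encodes a secreted amplifier of Wnt signals, rose from 2.61 ± 0.85 to 17.95 ± 0.93 CPM (2.71, SE 0.16, edgeR adjusted p-value 3.36e-07). The gene of the dorsalising signal Bmp4 rose from 0.769 ± 0.30 to 3.14 ± 0.21 CPM (2.04, SE 0.28, 0.000167). With 23, 13 and 8 counts in WT, Bmp4 passed the filter on low counts only with the knockout libraries. A fall of the same size would have left it untested, which limits the comparison of the 36.4% with all tested genes. Bmp7 was called higher too (0.49, SE 0.13, 0.0147), but not without knockout replicate 2. The list's most abundant gene, Bmp6, had 239 ± 17.1 CPM in WT, against 235 ± 5.73 CPM in KO libraries and was not called.

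The transcription factor genes of that list differed among themselves. Lmx1a, which is needed for the hem and the roof plate, had a log2 fold change of -0.33 (SE 0.17) and was not called. Msx1 was called lower, from 4.42 ± 0.24 to 3.04 ± 0.094 CPM (-0.53, SE 0.16, edgeR adjusted p-value 0.0301), and this call was lost when any 1 of the 6 libraries was left out (adjusted p-values 0.0533 to 0.102). Msx2 had a log2 fold change of 0.061 (SE 0.21) and was not called, and Lmx1b had at most 1 count in any library. Wnt2b rose from 0.937 ± 0.28 to 1.94 ± 0.59 CPM (1.01, SE 0.31, edgeR adjusted p-value 0.0311). Its call was lost without WT replicate 1 (1.10, adjusted p-value 0.0667), WT replicate 2 (0.85, 0.0528), knockout replicate 2 (0.84, 0.123) or knockout replicate 3 (0.96, 0.1103). The count of genes called higher fell to 2 without knockout replicate 2.

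Among the other TRP channel genes, none had a log2 fold change as high as that of Trpm3. Of 27 genes 19 were tested. Of these 3 were called higher (15.8%, against 12.7% of all tested genes) and 2 lower (10.5%, against 14.2%). The median log2 fold change was 0.081. The list summed to 417 to 475 CPM in WT, against 479 to 511 CPM in KO libraries. Trpm1, the closest relative of Trpm3 and the host of miR-211, rose from 4.64 ± 0.33 to 8.62 ± 1.17 CPM (0.90, SE 0.14, edgeR adjusted p-value 0.000561). Trpm4, a calcium-activated channel gene, rose from 6.02 ± 0.68 to 9.65 ± 0.58 CPM (0.69, SE 0.13, 0.00155). The third was Pkd2, which encodes polycystin-2 of primary cilia (0.26, SE 0.059, 0.00632). Trpc7 fell from 6.67 ± 0.95 to 2.65 ± 0.59 CPM (-1.35, SE 0.19, 0.000214) and the lysosomal channel gene Mcoln3 from 8.24 ± 1.21 to 4.31 ± 0.20 CPM (-0.95, SE 0.15, 0.000413). Trpm7, the most abundant of them at 184 ± 20.2 CPM in WT, had 208 ± 12.9 CPM in the knockout and was not called (0.18, SE 0.075, edgeR adjusted p-value 0.0989). It was called higher without WT replicate 3 (0.26, 0.0187) and with the replicate number as a block (0.18, 0.0158). Of the 31-mers in Trpm3 transcripts 2.69% also occur in another gene.

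**Figure D4:**
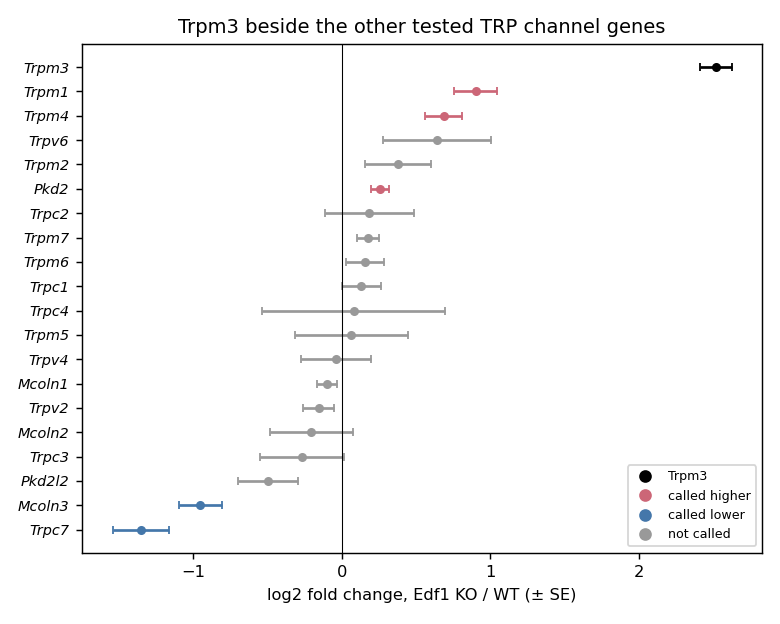
Log2 fold change with its standard error (horizontal axis, Edf1 KO over WT) for Trpm3 and the 19 other tested TRP channel genes, with Trpm3 in black and the others coloured by call. Trpm3 is at 2.52 and the next gene, its relative Trpm1, at 0.90.

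Genes within 500 kb of Trpm3 had log2 fold changes of 0.30 or less. Of 6 with a row, only Cemip2, 280.7 kb away, was called, with a log2 fold change of 0.30 (SE 0.092 and edgeR adjusted p-value 0.0308) and overlapping groups. The nearest, Klf9 at 145.8 kb, had 10.3 ± 3.08 CPM in WT, against 11.9 ± 0.56 CPM in KO libraries (0.19, SE 0.16). Smc5, Mamdc2, Abhd17b and 1110059E24Rik lay between -0.025 and 0.20 and were not called.

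The genes with the profile most like that of Trpm3 were ranked by the root mean square difference of log2 CPM over the 6 libraries after centring each gene, among 12888 genes with a mean log2 CPM of at least 1. The 5 nearest were AA467197 (0.13), Zic4 (0.27), Rspo3 (0.37), Kdr (0.41) and Fst (0.42). Zic4 is a transcription factor gene of the dorsal brain, with 4.65 ± 0.24 CPM in WT, against 20.1 ± 1.42 CPM in KO libraries. Kdr, a VEGF receptor gene, had 38.1 ± 3.16 and 127 ± 2.16 CPM, and Fst, which encodes the activin antagonist follistatin, had 1.68 ± 0.55 and 6.37 ± 1.53 CPM. Of the markers Otx2 was the most similar, at rank 272 (0.93), and Folr1 followed at rank 2935. Enpp2 came last of them, at rank 12408 (1.58). Trpm3 was chosen on the same 6 libraries, so this order is a description.

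Markers of other cells and regions that express genes of the set were examined as well. Over all tested genes 12.7% were called higher and 14.2% lower. Of 12 retinal pigment epithelium genes 6 were tested and 1 was called higher (16.7%), which was Pmel (0.89, SE 0.18). That share lay near the one over all tested genes. Of the pigment enzyme genes, Tyr and Dct were at 0 counts in WT and Tyrp1 had 17, 6 and 7. Rpe65, the visual cycle isomerase gene, had 2.12 ± 0.53 CPM in WT and 2.96 ± 0.35 CPM in KO libraries and was not called. That list summed to 29.9 to 32.0 CPM in WT and 35.1 to 38.3 CPM in KO libraries. Of 13 meningeal fibroblast genes 10 were tested and 6 were called higher (60%). The largest changes were those of Dcn (1.25, SE 0.18), Col3a1 (1.10, SE 0.20) and Col1a1 (1.01, SE 0.13). The list summed to 334 to 371 CPM in WT, against 496 to 511 CPM in KO libraries. Most of this was Ogn, with 256 ± 11.5 CPM in WT and 343 ± 26.0 CPM in KO libraries (0.42, SE 0.059). The call of Lum in that list was lost without WT replicate 1 or any 1 knockout library. Slc22a6 of that list was at 0 in every library. The 4 tested of 12 mural and endothelial genes were called higher (100%). Their list summed to 569 to 597 CPM in WT and 769.7 to 824.7 CPM in KO libraries. Most of that sum was Acta2 (475 ± 19.0 CPM in WT and 586 ± 21.9 CPM in KO libraries). Of the mural genes Acta2, Pdgfrb (0.42, SE 0.063) and Notch3 were called higher, and Rgs5, Kcnj8 and Abcc9 were too low to be tested. Rgs5 had 11, 4 and 8 counts in WT, against 5, 2 and 11 in KO libraries. Kcnj8 had 3, 0 and 1 against 0, 5 and 3, and Abcc9 had at most 1 count in any library. Of the endothelial genes, Kdr was called higher. Cdh5 was not tested and had 2, 4 and 5 counts in WT, against 8, 26 and 13 in KO libraries. Pecam1 and Tek had 2 to 16 counts in every library, and Cldn5 and Emcn had 0 counts in WT and at most 3 in KO libraries. With no filter beyond 1 count, 5 genes of that list were called higher. Notch3 was no longer called when WT replicate 1 or either of knockout replicates 1 and 2 was left out. The part of these cells in the Trpm3 and Enpp2 values was not tested.

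Pituitary hormone genes, which matter here because Otx2 is also a pituitary gene, differed between the genotypes. Prl had 0 counts throughout WT, and 198, 175 and 131 in the knockout. Gh had 0 in WT and 15, 10 and 15 in the knockout. Of 12 pituitary genes 4 were tested. Prl, Cga and Pomc were called higher (75%, against 12.7% of all tested genes) and Lhb lower (25%, against 14.2%). Cga had 1, 2 and 3 counts in WT, against 40, 59 and 59 in KO libraries. Prl and Cga passed the filter on low counts only through the knockout libraries, so they could not have been called lower. The summed level of the list was 17.6 to 20.6 CPM in WT, against 29.1 to 35.5 CPM in KO libraries, and Fshb was at 0 in every library. Of 13 midbrain and diencephalon genes 5 were tested and 3 were called higher (60%, against 12.7% of all tested genes). Barhl2 had the largest rise (1.80, SE 0.28). Barhl2 had 36, 6 and 22 counts in WT, and Gata2, also called higher, had 18, 9 and 6. Both passed the filter on low counts only with the knockout libraries. A fall of the same size would have left them untested, so the 60% is not a like comparison. The list summed to 61.8 to 63.8 CPM in WT and 70.1 to 72.2 CPM in KO libraries. The count for that list fell to 1 without WT replicate 1, WT replicate 3 or any 1 knockout library, and by DESeq2. Whether pituitary or midbrain cells contributed to the Otx2 value was not tested.

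Oligodendrocyte and erythroid markers were also followed. Of 10 oligodendrocyte genes 6 were tested and none was called higher, against 12.7% of all tested genes. Only Cnp was called lower (16.7%, against 14.2%), with a log2 fold change of -0.25 (SE 0.051), beside the lower Enpp2. The list summed to 432 to 472 CPM in WT and 401 to 418 CPM in KO libraries. Most of this was Cnp, with 350 ± 20.7 CPM in WT and 295 ± 3.58 CPM in KO libraries. The part of oligodendrocytes in the Enpp2 value was not tested. The erythroid genes Hba-a2, Hbb-bs, Hbb-bt and Slc4a1 were at 0 in every library, and the list summed to 0.756 to 2.02 CPM.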

How the data were processed

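RNA was sequenced from 3 WT and 3 Edf1 knockout cultures. The authors deposited a table of integer read counts, 22851 genes by 6 libraries. Per the submitters' processing notes, FastQC 0.11.2, cutadapt 1.11, HISAT2 2.1.0 and the build GRCm38 were used. The counting program, annotation and strand setting are not given in the sources used here. Every row named a gene and every sample column was used. The counts were analysed in R 4.3.3. Genes were filtered with filterByExpr of edgeR 4.0.16, which left 14243, and scaled with TMM factors. All were fitted with edgeR's quasi-likelihood test for genotype, without covariates. P-values were adjusted by Benjamini-Hochberg across the 14243 genes, and calls were made at 0.05. Standard errors are the log2 fold change divided by the root of the F statistic. Log2 CPM used a prior count of 2. The fits were tested on simulated data. P-values set the difference between genotypes against the spread between these libraries, and whether animals were pooled is not given.

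The members and gene lists were chosen with earlier results of these data known. Named from each list were up to 4 called genes with the largest change and no overlap between groups, and its most abundant gene. For the retinal, erythroid and midbrain lists the genes of this rule are given only in part. Other genes are said to be named after their values were seen or are given for their role. Lengths and overlaps came from GENCODE M21 and promoters and microRNAs from RefSeq (GRCm38.p6). Alternatives were DESeq2 size factors, library size alone, 2 other filters, DESeq2 1.42.0, limma voom (3.58.1), a replicate block, each library left out, and a threshold of 0.01.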

Additional observations from a re-analysis of the deposited data

How the results depend on the processing

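Trpm3 kept a log2 fold change of 2.44 to 2.61 and Otx2 one of 0.67 to 0.69 over 13 alternatives each. A threshold of 0.01 lowered the number of called genes from 3833 to 2213, and the 6 fits that each left out 1 library gave 2658 to 4340. The number of roof plate and cortical hem genes called higher fell from 4 to 2 with a mean of at least 50 counts and at the threshold of 0.01, and was 2 to 5 with 1 library left out. The 1 gene of that list called lower, Msx1, was no longer called by DESeq2, at the threshold of 0.01 or without any 1 library, so the count was 0 in each. The first filter removes low genes, and the cause of the other changes was not tested. The median log2 fold change of the tested members ran from -0.34 to 0.095 with 1 library left out and was 0.031 with the filter on 50 counts, which drops Clic6. The counts for the other choroid plexus genes and the TRP channels stayed within 1.5 times in all alternatives.

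The replicate number as a replicate block gave 4065 called genes, of which 3683 were shared with the reported 3833. It changed the call of no member. Of the other genes named, Wnt2b (edgeR adjusted p-value 0.0515) and Otx1 (0.0641) were no longer called, and Trpm7 was called higher (0.0158), so that 4 TRP channel genes were higher. The deviations of same-numbered libraries from the mean of their group correlated at 0.069, 0.060 and 0.037, so no pairing was assumed. Depth limits Kl and Slc4a5 most, with no more than 8 counts in a library.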
